A study of Mus musculus with 24 samples.

Results

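The 50 genes described here are a set that cells transcribe mainly in G2 phase and mitosis. They were chosen by symbol from knowledge of the cell cycle under a rule that uses no measured value, but with earlier results of these data known. All 50 were found among the 55416 gene rows of the count table, and all 50 carried enough counts to stand among the 17736 genes tested. The set was split by role into CDK1 and its cyclins (7 genes), the enzymes that switch CDK1 on or off (4), mitotic kinases with partners of the anaphase-promoting complex (5), the spindle checkpoint (5), the centromere and kinetochore (6), motors and other spindle proteins (13), chromosome structure (5) and cytokinesis (5).

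A cell enters mitosis when the kinase CDK1, bound to a cyclin, is freed of the inhibitory phosphates that WEE1 and PKMYT1 place on it and CDC25 phosphatases remove. The chromosomes then condense, kinetochores built on CENPA chromatin attach to the spindle, and the BUB and MAD proteins hold back CDC20 and the anaphase-promoting complex until attachment is complete. Most of these transcripts follow a shared program: repressor complexes hold the genes silent in resting cells, and MYBL2 and FOXM1 raise them as cells pass S phase. In the neonatal cerebellum the granule cell precursors of the external germinal layer divide in large numbers, under the drive of Sonic hedgehog from Purkinje cells.

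Poly(A) RNA was sequenced from the cerebella of 24 neonatal C57BL/6J mice, 12 labelled Ethanol and 12 labelled Control. Ethanol animals had received 4 g/kg/day of ethanol in intralipid by gavage from P4 on, and Control animals the same lipid emulsion and gavage with water in place of ethanol, so that all 24 shared the handling and the lipid load. No ungavaged animals were sequenced. The study's methods place collection at P5 or P6, a day after the last dose, and take from each of 6 litters of an in-house colony both sexes under both treatments, 1 animal of each kind, but the labels used here name only the treatment and the animal, so every value below pools both ages and both sexes. In order of their numbers the animals form 6 runs of 4, each with 2 Ethanol and 2 Control animals. That is the number and make-up of the litters in the methods, but no source used here ties an animal to a litter, so the runs stand only as a grouping by number.

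The libraries held 26982564 to 38804942 counts each. The labelled tissue is brain. The 8 cerebellum markers (among them Zic1 and Barhl1) were all tested, while the forebrain regulators Emx1, Dlx1 and Dlx2 were too low to test. Ttr, the main transcript of the choroid plexus, stayed at or under 3.57 CPM (counts scaled to a common library size) in 4 libraries, those of Ethanol animals X4568 and X4766 and of Control animals X4761 and X4770. In every other library it reached 322 CPM or more. Ethanol X4673 stood apart in another way. Over 11314 genes above log2 CPM 3, its deviation from each gene's mean had a rank correlation of -0.60 with the gene's exon length, so that long genes read low in it, against -0.27 to 0.30 in the other 23 libraries. Results that rest on these 5 libraries are given with and without them below.

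More of the mitotic transcripts were lower than higher in Ethanol, by small amounts. With edgeR's quasi-likelihood test and Benjamini-Hochberg adjustment over all genes tested, 9 of the 50 genes (18%) were lower and 2 (4%) were higher in Ethanol at an adjusted p under 0.05, and 39 did not pass. Among all 17736 genes the same test called 5.80% lower and 9.07% higher, 14.9% in all. The genes that fell were Ccnb2, Ccna2, Cdc25b, Bub1, Bub1b, Cenpa, Kif4, Tpx2 and Anp32e, and the 2 that rose were Ccnf and Hjurp. The fold change was below 0 for 37 of the 50 genes, against 52.3% of all genes tested. The median log2 fold change of the set was -0.06, with a range of -0.24 to 0.33, and that of all genes was -0.01.

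The size of these differences was close to the spread between animals. The SD of log2 CPM among Control animals had a median of 0.10 over the 50 genes (0.06 to 0.19), and the absolute log2 fold change had a median of 0.09 over all 50 and 0.15 over the 11 past the test. No gene of the set had Ethanol and Control values that failed to overlap, against 0.175% of all genes tested. An unadjusted p under 0.05 was reached by 27 of the 50 genes, against 28.4% of all genes. Of the 50 genes, 21 had such a p and were lower in Ethanol, against 13.2% of all genes. Because the RNA is from whole cerebellum, fewer dividing cells and less RNA per dividing cell cannot be told apart in any of these values.

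**Figure D1:**
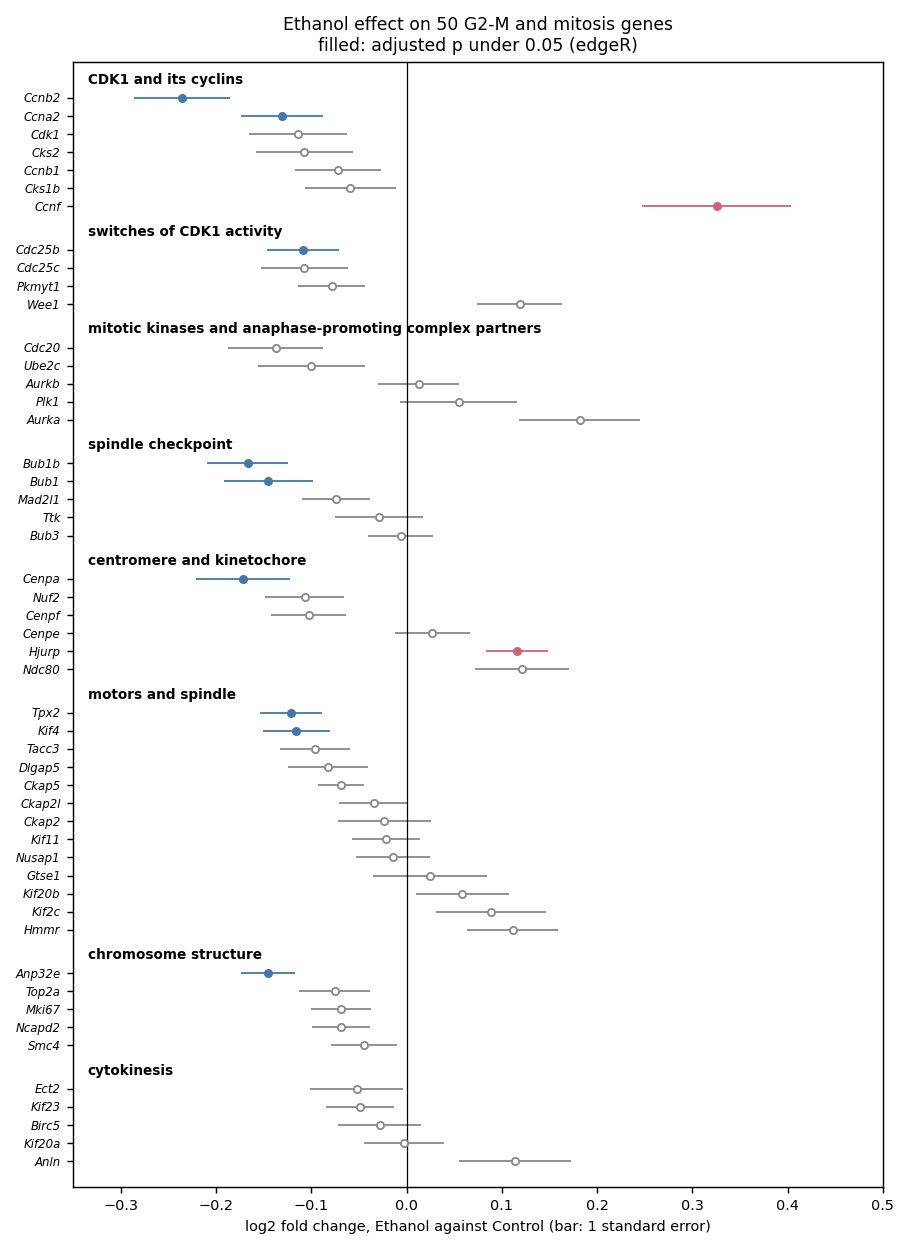
Log2 fold change of each of the 50 genes, Ethanol against Control (x axis; 12 animals a group), with 1 standard error, grouped by role; filled points passed edgeR's test at an adjusted p under 0.05. The 9 filled points left of 0 reach -0.24 (Ccnb2), and the 2 right of 0 are Ccnf at 0.33 and Hjurp at 0.12.

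The promoters of the set were searched for the letters of 2 elements that such genes are known to share, the cell cycle genes homology region (CHR), which the repressor and activator complexes of the G2-M program bind, and the CCAAT box, bound by NF-Y. A RefSeq promoter of 300 bases (250 before the transcript start and 50 after, GRCm38.p6) was on hand for 41 of the 50 genes, Ccna2 and Tpx2 not among them. The CHR was searched as TTTGAA or TTCGAA and the CCAAT box as CCAAT, each on both strands, and matches of the 2 kinds can share at most 1 end base. A CHR match was held by 32 of the 41 promoters (78.0%), against 21.7% of the 27025 promoters of all genes, and a CCAAT match by 32 (78.0%), against 41.1%. Both were held by 28 (68.3%), against 8.61% of all promoters. With the CHR limited to the stretch from 100 bases before the start to 50 after, the share was 68.3%, against 9.87%.

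Genes past the test and genes that did not pass both held these letters. Both matches were present in 7 of 7 promoters of genes that fell, in 2 of 2 of those that rose, and in 19 of the 32 that did not pass. Stretches near the transcript start are shown for genes that fell and for Ccnf, which rose, so that the same letters can be seen in both. The stretch of Ccnf runs from -192 to -48 and ends before the RefSeq start, because GENCODE places an exon of Ccnf upstream of that start. All stretches are from RefSeq on GRCm38.p6 and read 5′ to 3′ on the strand of the gene. CHR and CCAAT letters are in capitals (CCAAT reads ATTGG where it lies on the other strand).
Ccnb2, chr9:70421527-70421671, minus strand: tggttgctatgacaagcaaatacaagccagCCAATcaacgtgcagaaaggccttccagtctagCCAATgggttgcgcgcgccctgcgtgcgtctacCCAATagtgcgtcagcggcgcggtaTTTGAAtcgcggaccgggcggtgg
Bub1, chr2:127831838-127831982, minus strand: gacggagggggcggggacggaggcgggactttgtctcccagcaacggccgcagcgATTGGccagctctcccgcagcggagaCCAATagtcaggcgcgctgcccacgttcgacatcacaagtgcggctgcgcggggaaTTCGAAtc
Cdc25b, chr2:131186831-131186975, plus strand: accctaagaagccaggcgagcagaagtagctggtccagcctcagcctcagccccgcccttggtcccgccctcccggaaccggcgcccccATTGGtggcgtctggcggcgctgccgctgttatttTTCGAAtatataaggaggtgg
Anp32e, chr3:95929129-95929273, plus strand: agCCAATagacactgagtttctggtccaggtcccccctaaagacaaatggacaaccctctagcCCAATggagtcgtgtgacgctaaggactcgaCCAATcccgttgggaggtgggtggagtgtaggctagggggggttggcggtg
Ccnf, chr17:24251457-24251601, minus strand: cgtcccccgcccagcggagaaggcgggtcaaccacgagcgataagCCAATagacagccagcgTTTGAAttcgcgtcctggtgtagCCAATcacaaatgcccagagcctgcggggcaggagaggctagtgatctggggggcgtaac

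In Ccnb2 3 CCAAT boxes precede a CHR that begins at base 5 of the transcript, and a second CHR match begins 167 bases before the start, outside the stretch. Bub1 and Cdc25b show the same order, with 2 and 1 CCAAT matches and a CHR that begins at base 15 and 8 of the transcript. Anp32e has 3 CCAAT matches in the stretch shown and 1 more at -231, and its CHR match lies at -195, outside the stretch. Ccnf, which rose, has CCAAT matches at -147 and -107 around a CHR match at -130, and a second CHR match at -14 outside the stretch. Distances are those of the first base of a match, counted from 1 at the first base of the transcript. Bases before it are negative, and there is no 0.

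**Figure D2:**
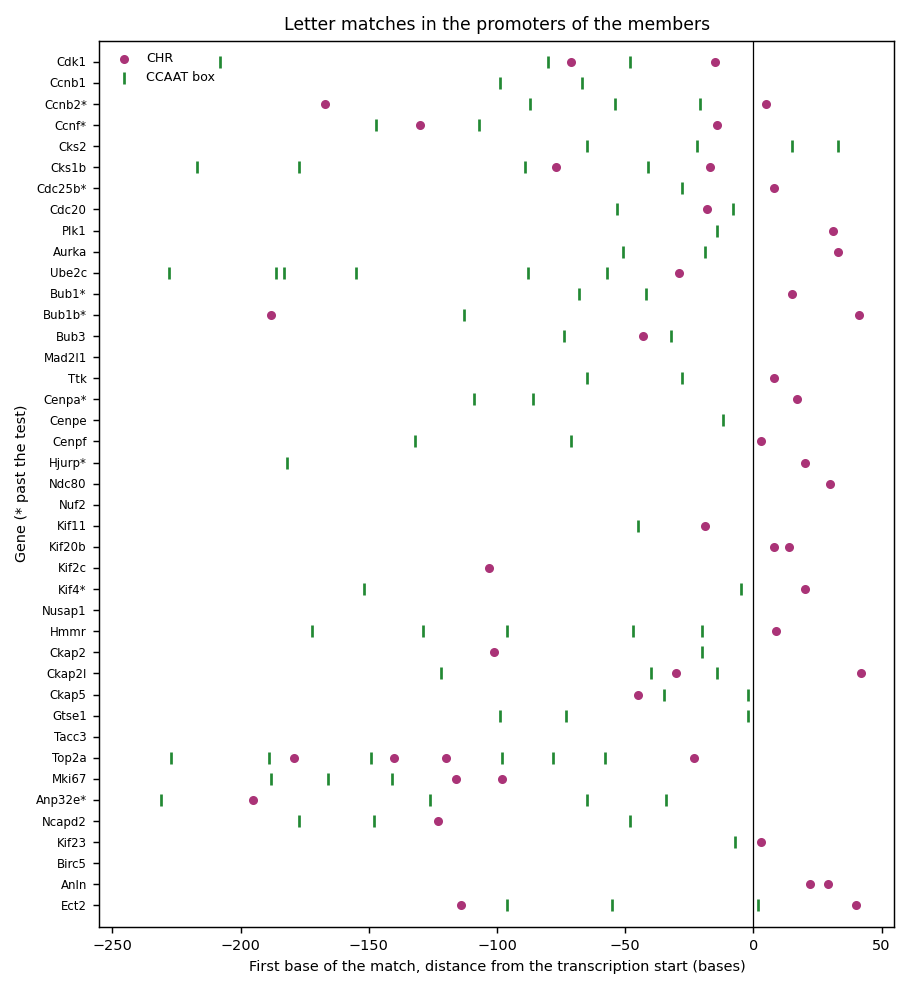
Position of letter matches in the 41 promoters (rows, in order of role), as the distance of the first base from the transcript start in bases (x axis); purple circles are CHR matches, green ticks CCAAT matches, and an asterisk marks genes past the test. Matches of both kinds are seen in rows with and without an asterisk, and the CHR matches of 28 promoters lie within the stretch from 100 bases before the start to 50 after it.

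Among CDK1 and its cyclins, 6 of 7 fold changes were below 0, 2 genes fell and 1 rose, with a median log2 fold change of -0.11. Ccnb2 encodes cyclin B2, a mitotic partner of CDK1, and had the lowest fold change of the set. Its level ran from 38.5 to 50.6 CPM in Control (median 46.9) and from 32.7 to 45.9 CPM in Ethanol (median 40.3). All 12 Ethanol animals lay below the Control median and 4 lay below every Control animal, although the ranges overlapped. In the fit the log2 fold change was -0.24 with a standard error of 0.05 (adjusted p = 0.00226, edgeR), a fall of the mean by 15.1%.

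Ccna2 encodes cyclin A2, which serves S phase as well as the entry into mitosis. It measured 161.6 to 201 CPM in Control (median 183.6) and 145.0 to 191 CPM in Ethanol (median 166.6). Of the Ethanol animals, 10 lay below the Control median and 3 below every Control animal. Ethanol differed from Control by -0.13 on the log2 scale, with a standard error of 0.04 (adjusted p = 0.0382, edgeR). The call was lost on leaving out any one of 11 animals, where the adjusted p rose to between 0.0514 and 0.0705, and dropping the 4 Ttr-low libraries raised it to 0.0906. Ccna2 shares 510 exon bases with Exosc9 on the other strand, and the strand setting of the counting is not given in the sources used here. Exosc9 itself had a log2 fold change of -0.11 (adjusted p = 0.106, edgeR).

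Ccnf went the other way. Its product, cyclin F, does not activate a kinase but carries substrates to a ubiquitin ligase in G2, and its promoter holds the same CHR and CCAAT letters as that of Ccnb2. Control animals held 31.1 to 48.3 CPM (median 39.7) and Ethanol animals 35.7 to 58.1 CPM (median 48.9). The Ethanol level exceeded the Control median in 11 of 12 animals and every Control animal in 6. The log2 fold change of 0.33, with a standard error of 0.08 (adjusted p = 0.00617, edgeR), was the highest of the set. Ccnf also had the widest spread among Control animals, with an SD of 0.19 on the log2 scale. Ethanol X4673 held its highest value, and without that library the log2 fold change was 0.30.

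The other 4 genes of the class did not pass. Cdk1 itself had medians of 83.7 CPM (Control) and 75.6 CPM (Ethanol), with 10 of 12 Ethanol animals below the Control median and the pair means of Ethanol lower in all 6 runs. The log2 fold change of -0.11 did not pass (adjusted p = 0.142, edgeR). In Ethanol X4673 it reached 94.5 CPM, above every other animal, and Cdk1 and Cks2 were among 5 genes added to the lower ones when that library was left out. Ccnb1, the other main mitotic cyclin, had a log2 fold change of -0.07 (adjusted p = 0.304, edgeR). The CDK1 adaptors Cks2 and Cks1b were at -0.11 and -0.06.

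Among the switches of CDK1, Cdc25b fell and the other 3 did not pass. Cdc25b encodes a phosphatase that activates CDK1 in G2. It ran from 79.1 to 93.1 CPM in Control (median 89.2) and from 71.8 to 91.3 CPM in Ethanol (median 80.6), with 5 Ethanol animals below every Control animal. A log2 fold change of -0.11 with a standard error of 0.04 resulted (adjusted p = 0.0494, edgeR). This was the weakest call of the set: leaving out any one of 17 animals moved the adjusted p to between 0.0511 and 0.0814, and limma-voom gave 0.0501. Cdc25b shares 92 exon bases with Spef1 on the other strand, a gene that was higher in Ethanol (log2 fold change 0.16, adjusted p = 0.00686, edgeR).

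Wee1, the kinase that restrains CDK1, had a fold change of the opposite sign to that of the phosphatases. It measured 21.7 to 26.0 CPM in Control (median 24.1) and 22.0 to 29.4 CPM in Ethanol (median 26.4), and 6 Ethanol animals lay above every Control animal. The log2 fold change of 0.12 did not pass (adjusted p = 0.0700, edgeR), but did on leaving out Ethanol X4760. The second inhibitory kinase, Pkmyt1, had a log2 fold change of -0.08 and Cdc25c one of -0.11, with adjusted p of 0.139 and 0.111 (edgeR).

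None of the 5 mitotic kinases and partners of the anaphase-promoting complex passed, and their fold changes were on both sides of 0 (3 above, 2 below). Aurka, which encodes the kinase of spindle poles, came nearest. Control animals held 26.7 to 36.0 CPM (median 30.6) and Ethanol animals 26.3 to 41.8 CPM (median 34.9). The level exceeded the Control median in 11 of 12 Ethanol animals, and the twelfth, Ethanol X4760, held the lowest value of all 24. The log2 fold change was 0.18 with a standard error of 0.06 (adjusted p = 0.0530, edgeR). It passed in DESeq2 and once the fit held a term for the runs of animals. Cdc20, the activator of the complex, had a log2 fold change of -0.14 (adjusted p = 0.0620, edgeR), and Ube2c, its ubiquitin-conjugating enzyme, one of -0.10 (adjusted p = 0.247, edgeR). The Ethanol pair mean of Cdc20 was lower in all 6 runs, and Cdc20 also passed once the runs were in the fit. Plk1 and Aurkb were at 0.05 and 0.01.

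All 5 spindle checkpoint genes had a fold change below 0, and 2 of them fell. Bub1b encodes BUBR1, a part of the complex that holds back CDC20. It ran from 89.9 to 110.9 CPM in Control (median 100.4) and from 78.4 to 103 CPM in Ethanol (median 89.9). Of the Ethanol animals, 11 lay below the Control median and 6 below every Control animal. In the fit the log2 fold change was -0.17 with a standard error of 0.04 (adjusted p = 0.00810, edgeR).

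Bub1 encodes the kinase that brings other checkpoint proteins to the kinetochore. Control animals held 39.0 to 53.0 CPM (median 48.1) and Ethanol animals 37.6 to 49.0 CPM (median 42.4), and 11 of 12 Ethanol animals lay below the Control median. Ethanol differed from Control by -0.15 on the log2 scale, with a standard error of 0.05 (adjusted p = 0.0351, edgeR). Leaving out any one of 11 animals moved the adjusted p to between 0.0505 and 0.0669, and dropping the Ttr-low libraries moved it to 0.0984. The other checkpoint genes were Mad2l1 at -0.07, Ttk, the kinase MPS1, at -0.03 and Bub3 at -0.01 on the log2 scale.

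At the centromere, Cenpa and the gene of its own chaperone moved apart. Cenpa encodes the histone H3 variant that marks centromeres. It measured 48.4 to 62.7 CPM in Control (median 56.9) and 42.0 to 57.9 CPM in Ethanol (median 49.6), with 5 Ethanol animals below every Control animal. A log2 fold change of -0.17 with a standard error of 0.05 resulted (adjusted p = 0.0176, edgeR).

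Hjurp, whose product deposits CENPA at centromeres after mitosis, rose. It ran from 235.0 to 267 CPM in Control (median 256) and from 242 to 306 CPM in Ethanol (median 273). In 8 of 12 Ethanol animals the level was above every Control animal, the largest such count among the 50 genes, and 1 Ethanol animal lay below the Control median. The log2 fold change was 0.12 with a standard error of 0.03 (adjusted p = 0.0161, edgeR). The outer kinetochore pair that forms one complex was also split, with log2 fold changes of 0.12 for Ndc80 and -0.11 for Nuf2, and neither passed (adjusted p = 0.100 and 0.0817, edgeR). Cenpf was at -0.10 and the kinetochore motor Cenpe at 0.03.

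Among the 13 motors and spindle proteins, Kif4 and Tpx2 fell, 9 fold changes were below 0 and the median was -0.02. Kif4 encodes a motor that rides on chromosome arms. It measured 52.2 to 64.9 CPM in Control (median 59.0) and 49.7 to 58.2 CPM in Ethanol (median 54.0), and all 12 Ethanol animals lay below the Control median. In the fit the log2 fold change was -0.12 with a standard error of 0.04 (adjusted p = 0.0251, edgeR). Dropping the 4 Ttr-low libraries raised the adjusted p to 0.113. Kif4 shares 832 exon bases with Pdzd11 on the other strand, whose log2 fold change was -0.01.

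Tpx2 encodes a protein that activates Aurora A and seeds microtubules around chromosomes. Control animals held 140.4 to 168 CPM (median 155.8) and Ethanol animals 132.2 to 158 CPM (median 142.7), with 4 Ethanol animals below every Control animal. Ethanol differed from Control by -0.12 on the log2 scale, with a standard error of 0.03 (adjusted p = 0.0117, edgeR), so that Tpx2 and Aurka, whose products bind each other, had fold changes of opposite sign. Ckap5, a microtubule polymerase, came near the threshold (log2 fold change -0.07, adjusted p = 0.0525, edgeR) with the smallest spread among Control animals of the set. It passed as lower with limma-voom, DESeq2, upper-quartile factors, the stricter filter and the runs as a block. The remaining 10 genes ran from -0.10 (Tacc3) to 0.11 (Hmmr).

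All 5 genes of chromosome structure had a fold change below 0, and Anp32e fell with the smallest p of the set. Its product is a chaperone that removes the histone variant H2A.Z, and it is not confined to dividing cells. It ran from 339.9 to 399 CPM in Control (median 375) and from 313.9 to 354.0 CPM in Ethanol (median 342.6). All 12 Ethanol animals lay below the Control median and 5 below every Control animal. A log2 fold change of -0.15 with a standard error of 0.03 resulted (adjusted p = 0.000867, edgeR). Top2a, which untangles DNA, Mki67, the proliferation antigen Ki-67, and the condensin subunits Ncapd2 and Smc4 lay between -0.08 and -0.04, with adjusted p from 0.134 to 0.434 (edgeR).

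None of the 5 cytokinesis genes passed, and 4 had a fold change below 0. Anln, which encodes the actin-binding protein anillin of the cleavage furrow, had the smallest p of these. It measured 28.4 to 37.8 CPM in Control (median 33.1) and 27.9 to 43.1 CPM in Ethanol (median 35.7), and the log2 fold change was 0.11 with a standard error of 0.06 (adjusted p = 0.205, edgeR). Ect2, Kif23, Kif20a and the chromosomal passenger Birc5 had log2 fold changes from -0.05 (Ect2) to -0.0026 (Kif20a).

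**Figure D3:**
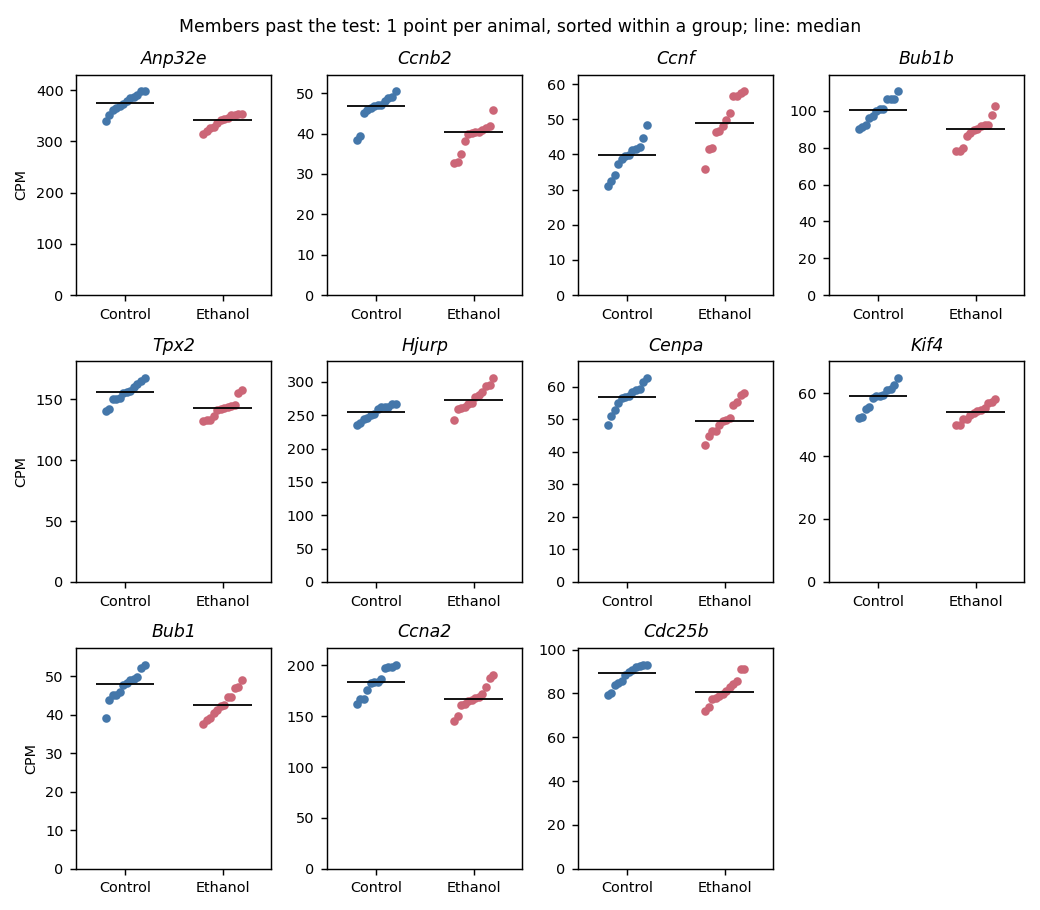
CPM of the 11 genes past the test, 1 point per animal sorted within its group (12 Control, blue; 12 Ethanol, red), with a line at the median and each y axis starting at 0. The Ethanol points of Ccnb2, Anp32e and Kif4 all lie below the Control median, those of Ccnf and Hjurp lie above it in 11 of 12 animals, and the groups overlap in every panel.

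Levels between genes can be compared only per length. The length used was that of all annotated exons of a gene merged. It can exceed the length of the transcripts present, so the order of genes is approximate. As CPM per kb of exon, the Control medians ran from 3.4 (Kif20b) to 105 (Anp32e), with Cks2 at 55.4, Ncapd2 at 47.5, Ccna2 at 45.0, Cdc20 at 44.1, Cdk1 at 17.0 and Anln at 3.65. Among the genes past the test, Ccnf was lowest at 5.09 and Anp32e highest. The highest library exceeded the lowest by a median of 1.36-fold over the 50 genes.

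The mean of the 50 z-scores of log2 CPM gave 1 value per animal. It ran from -1.11 to 1.17 in Control (median 0.15) and from -1.63 to 0.92 in Ethanol (median -0.16), and 9 of 12 Ethanol animals lay below the Control median. The group means were 0.190 ± 0.655 (SD, n = 12) for Control and -0.190 ± 0.745 (SD, n = 12) for Ethanol, a difference of -0.38 that was smaller than either SD. No p is given for this mean.

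The difference was not the same in each run of 4 animals. Ethanol pair means were lower in 5 of the 6 runs, with differences in z-score of -0.220, -0.861, -0.517, -0.753 and -0.383 in the first to the fifth, and higher in the sixth, with a difference of 0.452. In the first 4 runs both Ethanol animals lay below both Control animals. The last runs held the extremes: in the fifth, Ethanol X4760 (-1.63) and Control X4762 (-1.11) were the lowest of all, beside Control X4761 (1.17) and Ethanol X4758 (0.915), and in the sixth a Control animal was at -0.643. By gene, the Ethanol pair mean was lower in all 6 runs for Ccnb2, Bub1b, Kif4, Tpx2 and Anp32e and higher in all 6 for Ccnf and Hjurp. It was lower in 5 for Ccna2, Cdc25b, Bub1 and Cenpa.

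**Figure D4:**
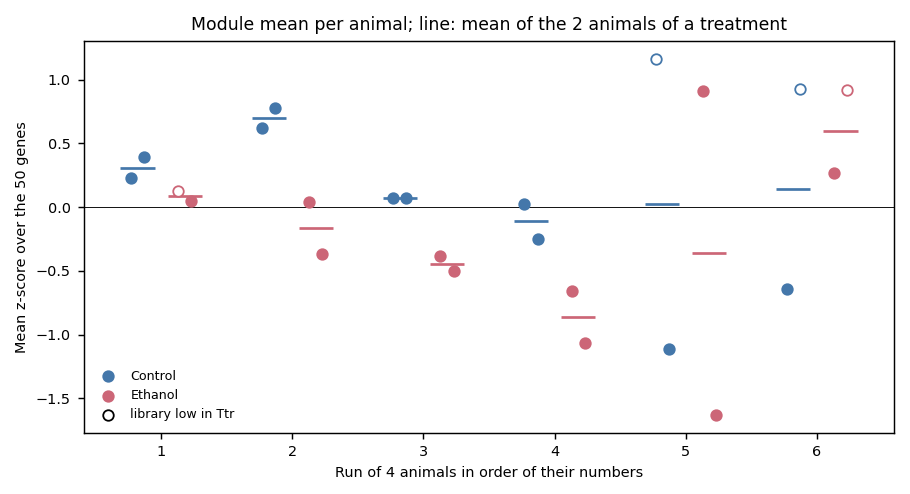
Mean z-score over the 50 genes (y axis) for each animal, by run of 4 animals in order of their numbers (x axis); blue is Control, red is Ethanol, lines are means of the 2 animals of a treatment and open points are the 4 libraries low in Ttr. Both Ethanol points lie below both Control points in runs 1 to 4, run 5 holds the lowest Ethanol (-1.63) and Control (-1.11) animals, and run 6 has the Ethanol mean higher.

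Single libraries held many of the extremes of the set. Ethanol X4760 had the lowest level of all 24 animals for 26 of the 50 genes and Control X4762 for 6, while Ethanol X4758 had the highest for 12, and Control X4761 and X4770 for 10 each. Ethanol X4673, the library with the length relation, was highest for 8 genes (Cdk1, Ccnf, Aurka, Bub3, Birc5, Gtse1, Cks2 and Cks1b) and lowest for 5 (Kif11, Kif23, Cenpf, Ckap5 and Ect2). Without Ethanol X4673, 14 genes were lower and 2 higher, the added ones being Cdk1, Cdc20, Ckap5, Tacc3 and Cks2. Without Ethanol X4760, 7 were lower and 4 higher, with Aurka and Wee1 added to the higher ones, and the difference of the module mean was -0.27.

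The 4 libraries low in Ttr had module means of 0.127 to 1.17, and they held the highest level of 24 of the 50 genes. Without them, 10 Ethanol against 10 Control animals gave 5 genes lower (Ccnb2, Bub1b, Cenpa, Tpx2 and Anp32e) and 2 higher (Ccnf and Hjurp), and a module difference of -0.38 with z-scores taken over the 20 animals. Ccna2, Bub1, Kif4 and Cdc25b no longer passed, with log2 fold changes of -0.12, -0.14, -0.09 and -0.11 in these 20 animals against -0.13, -0.15, -0.12 and -0.11 in all 24.

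**Figure D5:**
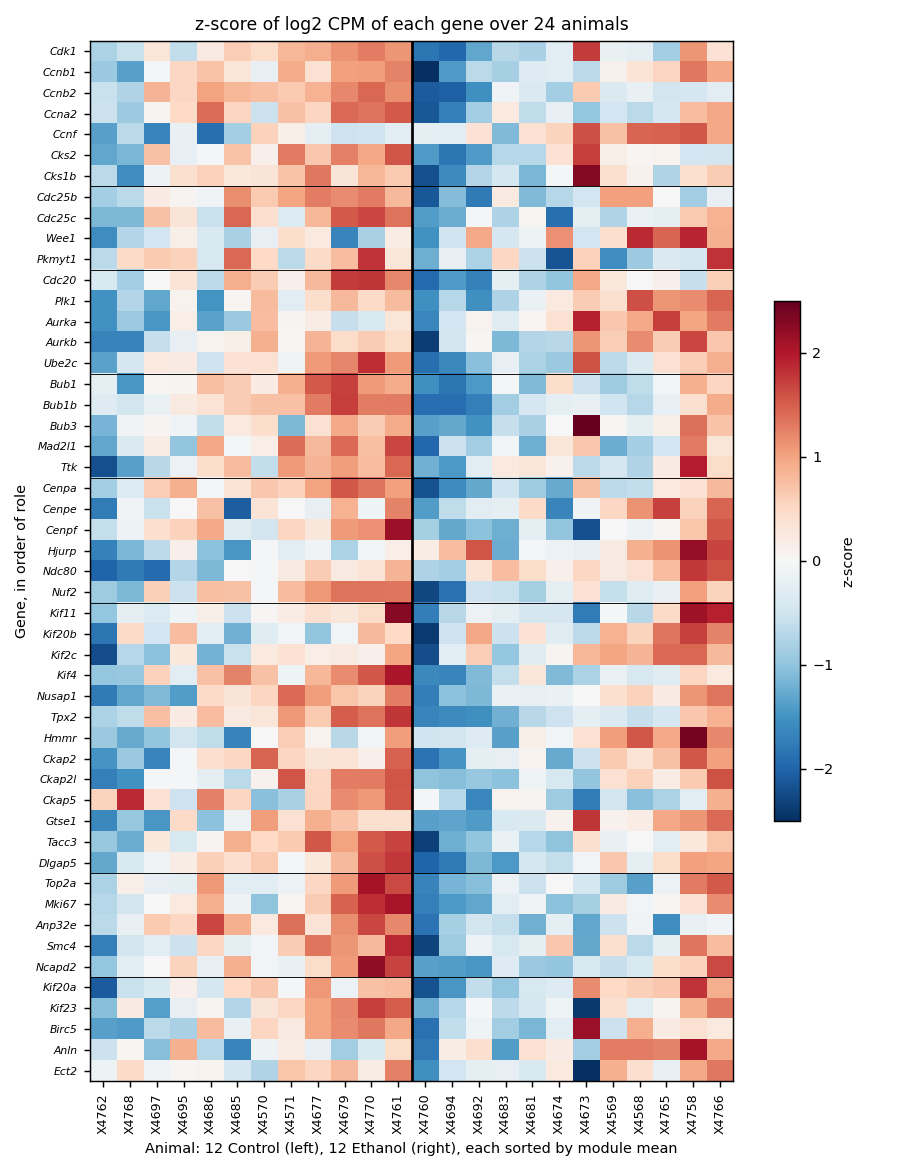
z-score of log2 CPM over the 24 animals (colour) for the 50 genes in order of role (rows) and the animals (columns; 12 Control at left, 12 Ethanol at right, each sorted by module mean). Ethanol X4760 is the column of lowest values, Ethanol X4673 mixes the highest values of 8 genes with the lowest of 5, and Ccnf at right is mostly above its values at left while Ccnb2 and Bub1b are mostly below theirs.

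Further genes of the same program were counted from a wider list that shares no member with the 50. Of 73 tested, 14 (19.2%) fell and 5 (6.85%) rose, against 5.80% and 9.07% of all genes. The median log2 fold change was -0.03. Knstrn, which encodes a kinetochore and spindle protein, went from a median of 67.1 to 58.2 CPM (log2 fold change -0.24, adjusted p = 0.000253, edgeR). Lmnb1 (lamin B1) was at -0.15, Shcbp1 at -0.17 and Racgap1, the partner of KIF23 in the central spindle, at -0.15, with adjusted p of 0.00272, 0.00277 and 0.00497 (edgeR). Ncapd3, a subunit of condensin II, had the smallest p among those that rose, from a median of 41.5 to 47.5 CPM (log2 fold change 0.22, adjusted p = 0.00176, edgeR). Ska2 rose by 0.17 and Spag5 by 0.14, both spindle attachment genes, and Cdc25a, a phosphatase that acts from the G1-S transition on, by 0.16. Foxm1, the activator of the program, had a log2 fold change of -0.04 (adjusted p = 0.558, edgeR), and Mybl2 one of -0.09 (adjusted p = 0.131, edgeR).

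The transcripts of the preceding phases were counted in the same way. Of 51 genes of G1-S and DNA replication, 2 (3.92%) fell (Rrm1 and Dscc1) and 3 (5.88%) rose (E2f8, Cdc7 and Ccne2). Over all genes tested, 5.80% fell and 9.07% rose. Of the 51 fold changes, 39 were below 0, against 52.3% of all genes. The median was -0.06, close to that of the 50 mitotic genes. Whether the 2 lists differ was not tested. Rrm1, a subunit of ribonucleotide reductase, had medians of 203 and 179 CPM (log2 fold change -0.13, adjusted p = 0.0305, edgeR), and Dscc1, of an alternative clamp loader at the replication fork, had a log2 fold change of -0.27 (adjusted p = 0.0117, edgeR). E2f8, a repressor that acts late in S phase, was at 0.19, the kinase Cdc7 at 0.12 and Ccne2, cyclin E2, at 0.17, with adjusted p of 0.00879, 0.00955 and 0.0133 (edgeR).

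Of 31 genes that restrain or regulate the G2-M program, 9 rose (29%, against 9.07% of all genes) and 1 fell (3.23%, against 5.80%). The median log2 fold change was 0.06. Sesn2, a stress-induced sestrin, went from a median of 19.2 to 27.9 CPM (log2 fold change 0.50 with a standard error of 0.08, adjusted p = 9.97e-05, edgeR). Gadd45b and Gadd45a, whose products bind CDK1 under stress, were at 0.49 and 0.31, and Ccng2, cyclin G2, at 0.30, with adjusted p of 0.000756, 0.00188 and 0.00187 (edgeR). Cdkn2c, an inhibitor of CDK4 and CDK6, fell by 0.16 on the log2 scale (adjusted p = 0.0144, edgeR). The mean z-score of the 31 genes ran from -0.588 to 0.0470 in Control and from -0.0464 to 0.625 in Ethanol.

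Markers of granule cell precursors and of granule neurons were counted next. Of 13 granule cell precursor markers, Mycn (log2 fold change 0.26) and Atoh1 (0.20) rose and Barhl1 (-0.18) fell, with adjusted p of 0.000281, 0.0474 and 0.0442 (edgeR), and 10 did not pass. These shares, 15.4% higher and 7.69% lower, were near the 9.07% and 5.80% of all genes. Their summed level was 2355 to 2855 CPM in Control and 2172 to 2811 CPM in Ethanol. The largest part of this sum was Zic1, also counted above as a cerebellum marker, with medians of 1130 CPM (Control) and 1168 CPM (Ethanol). Of 14 markers of granule neuron differentiation, Nhlh1 and Nhlh2 rose, and the summed level was 3247 to 4521 CPM in Control and 3486 to 4300 CPM in Ethanol.

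Markers of other cell types moved with ethanol as well, and their part in the values of the mitotic genes was not tested. For comparison, 9.07% of all genes tested rose and 5.80% fell. Endothelial markers fell in 4 of 8 genes and summed to 372 to 423 CPM in Control and 330.1 to 383 CPM in Ethanol. Oligodendrocyte precursor markers rose in 3 of 8 and summed to 395 to 535 CPM in Control and 455 to 600 CPM in Ethanol. Of 12 microglia markers 4 rose and 2 fell (184.5 to 263 against 205 to 326 CPM), and of 10 markers of astrocytes and Bergmann glia 3 rose and 2 fell (4080 to 4731 against 4448 to 4945 CPM). Of 6 red blood cell markers tested 1 fell (63.4 to 252 against 23.8 to 294 CPM). None of 14 choroid plexus markers passed, with a median log2 fold change of -0.43 and summed levels of 36.4 to 5507 CPM in Control and 47.2 to 5495 CPM in Ethanol. No list had a gene at 0 in every library.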

How the data were processed

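Cerebellar poly(A) RNA of 24 animals was compared as 12 Ethanol against 12 Control from the labels. The authors deposited estimated counts, 1 value per gene and animal, made with nf-core/rnaseq. GRCm39, Salmon, STAR and limma are listed in the submitters' processing notes. Neither strandedness nor the annotation used for counting is given in the sources used here. Counts were rounded to whole numbers, which changed 10.918% of values by more than 0.01. Genes were filtered with filterByExpr, scaled by TMM and fitted in R 4.3.3 with edgeR 4.0.16 (robust glmQLFit and glmQLFTest, 22 residual degrees of freedom), with Benjamini-Hochberg adjustment over all genes tested. The standard error was taken from the F statistic. CPM used the TMM factors, and z-scores used log2 CPM with a prior count of 2. Exon lengths and overlaps came from GENCODE (GRCm38), a build other than that of the counts. Promoter sequences and distances are those of RefSeq. Where each printed stretch ends was set by the first GENCODE exon base of the gene, if that lay before the RefSeq start. The main edgeR fit was also run on simulated counts with known fold changes, and the alternative fits were not.

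Full values are given for each member past the test and, in a role class with none, for the member of smallest p. From the further lists, up to 4 genes of smallest p in each direction are named. Foxm1, Mybl2, Wee1 and other members near the threshold were named after their values were seen. The members, lists and tests were chosen with earlier results of these data known. Alternatives were limma-trend, limma-voom (limma 3.58.1), DESeq2 1.42.0, upper-quartile or RLE factors, all rows kept, a filter of 1 CPM in 12 libraries, runs as a block, and leaving out each animal in turn or the 4 libraries with Ttr below log2 CPM 4. Comparisons within an age or sex were not analysed here.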

Additional observations from a re-analysis of the deposited data

How the results depend on the processing

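Of the 50 genes, 9 were lower and 2 higher in Ethanol. The lower count was 5 without a filter on low counts (35040 genes tested) and 5 without the libraries low in Ttr (10 animals a group). What lowered the count in these settings was not tested. The lower count was 13 with upper-quartile factors, which also moved the calls over all genes from 1608 higher and 1028 lower to 1373 and 1396. On leaving out each animal in turn it ranged from 6 to 14 and the higher count from 2 to 4. The highest counts came without Ethanol X4673 (14 lower) and without Ethanol X4760 (4 higher), and their cause was not tested. The difference of the module mean, -0.38, ranged from -0.494 to -0.271 on leaving out each animal and was -0.511 with the median in place of the mean z-score. Ccnb2, Ccnf, Bub1b, Cenpa, Tpx2, Anp32e and Hjurp kept their calls in all 9 other settings and all 24 fits without an animal, and Kif4 in the latter. Ccna2, Bub1, Kif4 and Cdc25b lost theirs without a filter (adjusted p 0.0727, 0.0618, 0.0584 and 0.0980, edgeR). No called gene changed direction. With each run of 4 animals as a block, 11 genes were lower and 3 higher, and all 11 calls remained. No analysis paired by replicate number was possible because each animal number occurs in only 1 group. Age and sex of an animal are not in the labels, so neither was fitted.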
